A study of Mus musculus with 3 samples.

Results

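The 6 genes described here encode the CXCL12 and apelin receptors and their ligands: the receptor genes Cxcr4, Ackr3 and Aplnr and the ligand genes Cxcl12, Apela and Apln. They were chosen by name from a table of 55487 mouse genes, and all 6 were among the 17655 genes that had at least 10 counts in at least 1 library. RNA was sequenced from embryoid bodies (EBs), aggregates in which embryonic stem cells begin to form the first embryonic lineages, grown from the wild-type mouse embryonic stem cell line E14K in medium without LIF. The 3 libraries were made from C2 ceramide-treated EBs on day 4, from DMSO-treated EBs on day 4, and from DMSO control EBs on day 3. C2 ceramide, a ceramide with a short acyl chain that crosses membranes, was given at 30 μM from the start of day 3, and the GEO labels call both DMSO libraries controls. The files name the day 3 library DMSO, but whether its EBs had received the solvent by then is not given in the sources used here, so a part of DMSO in the day 4 over day 3 ratios cannot be told apart from time. All of the EBs came from 1 cell line in culture, so the data describe this line and not an embryo. No condition had a replicate, so the conditions could not be tested against each other and the spread between cultures is unknown.

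CXCL12 is a secreted chemokine that binds CXCR4, a receptor that signals through inhibitory G proteins, and ACKR3, an atypical receptor that recruits arrestins and removes CXCL12 from the surroundings of a cell. Apelin and ELABELA (also called Toddler), encoded by Apln and Apela, are peptides that share the apelin receptor, encoded by Aplnr. In zebrafish embryos, Toddler and its receptors are needed for mesendodermal cells to internalise and migrate during gastrulation, and Cxcl12 and Cxcr4 couple the movement of the endoderm to that of the mesoderm. In the mouse embryo, Aplnr and Cxcr4 are known for their part in the development of the heart and blood vessels.

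The libraries held 33619197 to 35290094 estimated counts, 13421 to 13683 genes at 1 TPM or more, and 0.651% to 0.768% of counts from the mitochondrial genome. The 10 markers of the primitive streak and early mesoderm summed to 72.0 TPM in C2 ceramide-treated EBs on day 4, against 992 TPM in DMSO-treated EBs on day 4 and 91.3 TPM in DMSO control EBs on day 3. Of these 10 markers, 6, 10 and 5 were at 1 TPM or more in that order, and Mesp2 was at 0 counts with C2 ceramide. The 8 definitive endoderm markers summed to 1198 TPM with C2 ceramide, against 3258 TPM with DMSO on day 4 and 2900 TPM with DMSO on day 3, with Foxa1 at 0 counts with C2 ceramide. Most of these sums was Trh, and Sox17, a defining endoderm factor, had 2.26 TPM with C2 ceramide, against 254 TPM with DMSO on day 4 and 0.515 TPM with DMSO on day 3. TPM is the share of transcripts after division by transcript length. Ratios below are ratios of TPM on the log2 scale, with a 95% interval that covers counting error only. A gene was called higher above 2-fold and lower below 0.5-fold, the thresholds used in the study.

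With C2 ceramide, the 3 receptor genes were all lower than with DMSO on day 4, while the ligand genes differed in direction. Of the 6 genes, 4 were called lower (Cxcr4, Ackr3, Aplnr and Apln), where 12.3% of all genes in use were called lower. Cxcl12 was the 1 gene called higher, where 9.97% of all genes in use were called higher, and Apela stayed within 2-fold. The median log2 ratio of the 6 genes was -2.26, against -0.03 over all 17655 genes. Summed over the 3 receptor genes, the level was 3.15 TPM with C2 ceramide, against 78.0 TPM with DMSO on day 4 and 2.76 TPM with DMSO on day 3. Summed over the 3 ligand genes, it was 72.2 TPM with C2 ceramide, 64.4 TPM with DMSO on day 4 and 73.4 TPM with DMSO on day 3. The receptor sum was high in the DMSO library of day 4, where most of it was Aplnr, and low in the others. In RNA from whole EBs, fewer cells of a type and less RNA per cell cannot be told apart. The streak and early mesoderm marker sum was likewise highest with DMSO on day 4, and its part in the result was not tested.

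**Figure D1:**
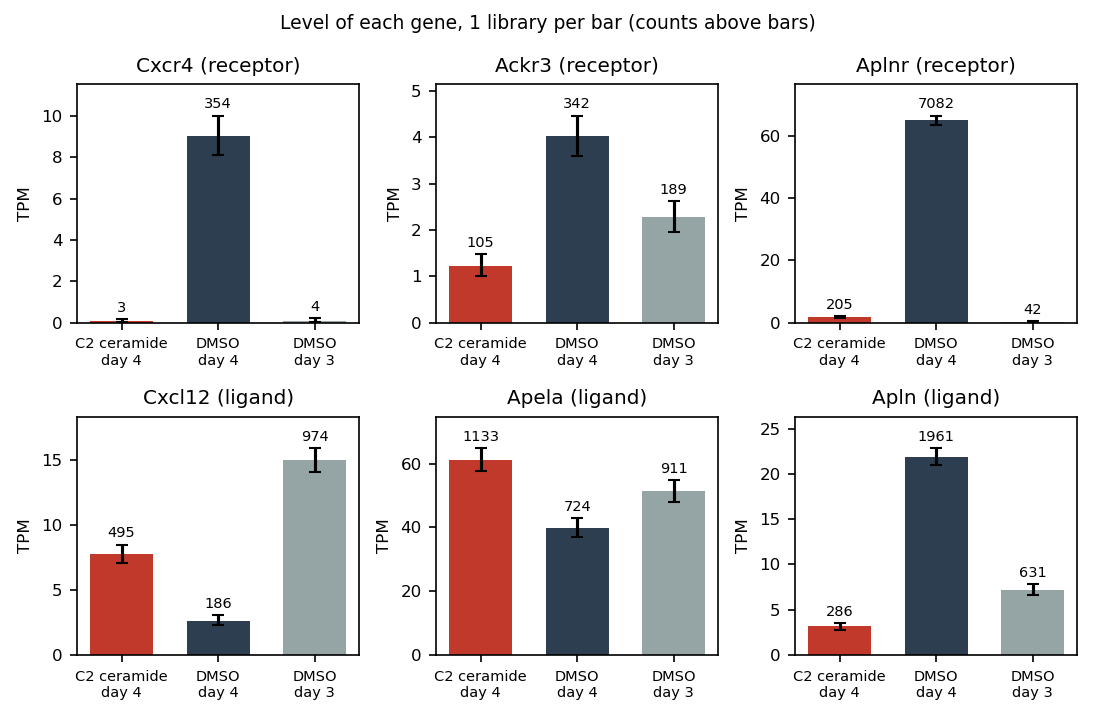
TPM of each of the 6 genes in the 3 libraries, with 1 bar per library, the estimated count above each bar and a 95% interval for counting error only; the axes start at 0 and differ between genes. Cxcr4, Ackr3, Aplnr and Apln were highest in DMSO-treated EBs on day 4, and Cxcl12 was lowest there at 2.64 TPM.

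Cxcr4 (ENSMUSG00000045382.6, chr1:128588199-128592293, minus strand, GRCm38) encodes the signalling receptor for CXCL12. It had 0.066 TPM (3 counts) in C2 ceramide-treated EBs on day 4, 9.02 TPM (354 counts) in DMSO-treated EBs on day 4, and 0.091 TPM (4 counts) in DMSO control EBs on day 3. The DMSO library of day 4 alone held more than a few reads of the gene. On day 4, C2 ceramide over DMSO gave a log2 ratio of -7.09 (-9.38 to -5.53). DMSO on day 4 was 99.1-fold higher than DMSO on day 3, a log2 ratio of 6.63 (5.26 to 8.51). Between C2 ceramide on day 4 and DMSO on day 3 the log2 ratio was -0.46 with an interval of -3.23 to 2.10, so a difference in either direction was not detectable at this depth.

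Ackr3 (ENSMUSG00000044337.5, chr1:90203980-90216751, plus strand, GRCm38), the atypical receptor for the same ligand, differed less. It had 1.22 TPM (105 counts) with C2 ceramide on day 4, 4.02 TPM (342 counts) with DMSO on day 4, and 2.27 TPM (189 counts) with DMSO on day 3. The C2 ceramide library was the lowest of the 3 and the DMSO library of day 4 the highest, and the counting intervals of the levels did not overlap. On day 4, C2 ceramide over DMSO gave a log2 ratio of -1.72 (-2.05 to -1.40). DMSO on day 4 over DMSO on day 3 gave 0.82 (0.56 to 1.09), within 2-fold by its value but with an interval that crossed the threshold. C2 ceramide on day 4 over DMSO on day 3 gave -0.89 (-1.25 to -0.54), which also crossed it.

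Cxcl12 (ENSMUSG00000061353.11, chr6:117168535-117181367, plus strand, GRCm38), the ligand of both receptors, was lowest where the receptor genes were highest. It had 7.79 TPM (495 counts) with C2 ceramide on day 4, 2.64 TPM (186 counts) with DMSO on day 4, and 15.0 TPM (974 counts) with DMSO on day 3. The DMSO library of day 4 was the lowest, the DMSO library of day 3 the highest, and C2 ceramide lay between them. C2 ceramide over DMSO on day 4 gave a log2 ratio of 1.56 (1.32 to 1.81), a 2.95-fold higher level. DMSO on day 4 over DMSO on day 3 gave -2.50 (-2.74 to -2.28). C2 ceramide on day 4 over DMSO on day 3 gave -0.94 (-1.10 to -0.79), within 2-fold by its value, and it passed 0.5-fold when counts were scaled by library totals, TMM factors or DESeq2 size factors.

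Between libraries, the CXCL12 system differed in its make-up. The TPM of Ackr3 over that of Cxcr4 was 18.5 with C2 ceramide on day 4, 0.446 with DMSO on day 4 and 25.0 with DMSO on day 3. The signalling receptor was above the atypical one in the DMSO library of day 4 and below it in the others. The TPM of Cxcl12 over that of Cxcr4 was 118.1 with C2 ceramide, 0.293 with DMSO on day 4 and 164.6 with DMSO on day 3. The Cxcr4 terms with C2 ceramide and on day 3 rest on 3 and 4 counts.

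Aplnr (ENSMUSG00000044338.9, chr2:85136225-85139923, plus strand, GRCm38) encodes the receptor for apelin and ELABELA and reached the highest level of the 6 genes in any library. It had 1.86 TPM (205 counts) with C2 ceramide on day 4, 64.9 TPM (7082 counts) with DMSO on day 4, and 0.394 TPM (42 counts) with DMSO on day 3. With DMSO on day 4 it ranked 2604 by TPM among the 17655 genes in use, against 11920 with C2 ceramide on day 4 and 14800 with DMSO on day 3. The level with C2 ceramide was 0.0286 of that with DMSO on day 4, a log2 ratio of -5.13 (-5.34 to -4.93). DMSO on day 4 was 164.8-fold higher than DMSO on day 3, a log2 ratio of 7.36 (6.93 to 7.84). C2 ceramide on day 4 was 4.71-fold higher than DMSO on day 3, a log2 ratio of 2.24 (1.75 to 2.75). Aplnr was the 1 gene of the 6 called higher in that comparison.

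Apela (ENSMUSG00000079042.10, chr8:65028417-65037336, minus strand, GRCm38), which encodes ELABELA, differed least. It had 61.2 TPM (1133 counts) with C2 ceramide on day 4, 39.9 TPM (724 counts) with DMSO on day 4, and 51.3 TPM (911 counts) with DMSO on day 3. The C2 ceramide library was the highest and the DMSO library of day 4 the lowest, with counting intervals that did not overlap, but all ratios were within 2-fold. On the log2 scale, C2 ceramide was 0.62 (0.48 to 0.76) above DMSO on day 4. The log2 ratio was -0.36 (-0.51 to -0.22) for DMSO on day 4 over DMSO on day 3 and 0.26 (0.13 to 0.38) for C2 ceramide on day 4 over DMSO on day 3. Gm45886, a processed transcript annotated over Apela on the same strand, had 0 counts in all 3 libraries.

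Apln (ENSMUSG00000037010.7, chrX:48025146-48034853, minus strand, GRCm38), which encodes apelin, followed its receptor in direction on day 4. It had 3.16 TPM (286 counts) with C2 ceramide on day 4, 21.9 TPM (1961 counts) with DMSO on day 4, and 7.20 TPM (631 counts) with DMSO on day 3. The C2 ceramide library was the lowest and the DMSO library of day 4 the highest. On day 4, C2 ceramide over DMSO gave -2.79 (-2.98 to -2.61) on the log2 scale. The log2 ratio was 1.60 (1.47 to 1.73) for DMSO on day 4 over DMSO on day 3. For C2 ceramide on day 4 over DMSO on day 3 it was -1.19 (-1.40 to -0.99), called lower by its value with an interval that reached the threshold, and -0.98 with a pseudocount of 1 TPM. C2 ceramide was thus below the day 3 level of Apln and above that of Aplnr.

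The make-up of the apelin system also differed between libraries. The TPM of Aplnr over that of Apela was 0.0303 with C2 ceramide on day 4, 1.63 with DMSO on day 4 and 0.00769 with DMSO on day 3. The receptor was above ELABELA in the DMSO library of day 4 and below it in the others. The TPM of Apela over that of Apln was 19.4 with C2 ceramide, 1.82 with DMSO on day 4 and 7.12 with DMSO on day 3, so ELABELA was the more abundant ligand transcript in every library.

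In the comparison of DMSO on day 4 with DMSO on day 3, which follows the EBs over the time when streak genes appear, 3 of the 6 genes were called higher (Cxcr4, Aplnr and Apln), where 12.8% of all genes in use were called higher. Cxcl12 was the 1 gene called lower, where 9.45% were called lower, and Ackr3 and Apela stayed within 2-fold. The median log2 ratio of the 6 genes was 1.21, against 0.05 over all genes. In the comparison of C2 ceramide on day 4 with DMSO on day 3, 1 gene was called higher (Aplnr), where 11.2% of all genes in use were called higher. In that comparison 1 gene was called lower (Apln), where 9.39% were called lower, and 4 stayed within 2-fold, with a median log2 ratio of -0.68, against 0.03 over all genes. The 3 comparisons share libraries and are not independent of each other.

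**Figure D2:**
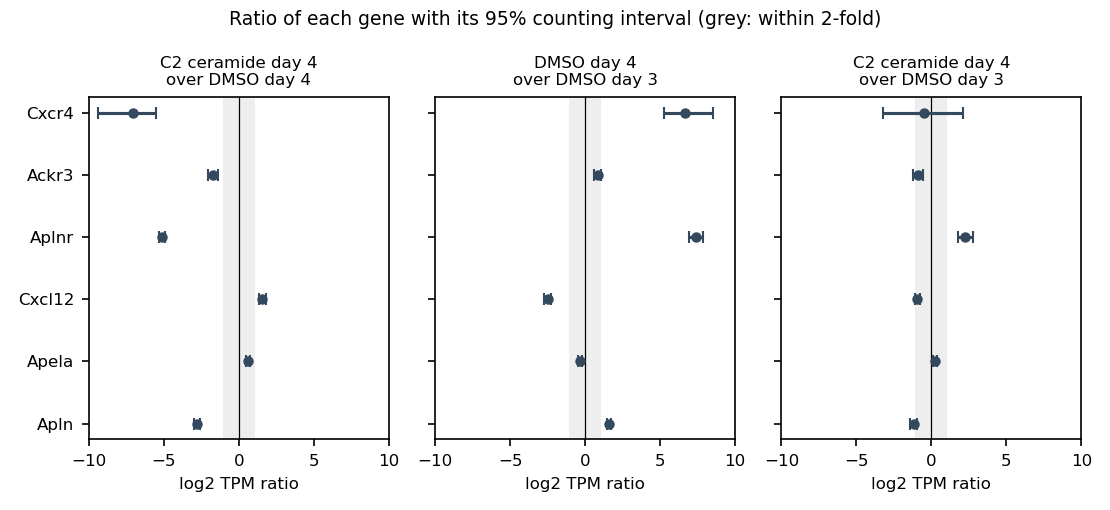
Log2 TPM ratio of each of the 6 genes in the 3 comparisons, with 1 point per gene, bars for the 95% counting interval and grey for ratios within 2-fold. The 3 receptor genes lie left of the grey band for C2 ceramide over DMSO, from -7.09 to -1.72, and the widest intervals are those of Cxcr4.

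**Figure D3:**
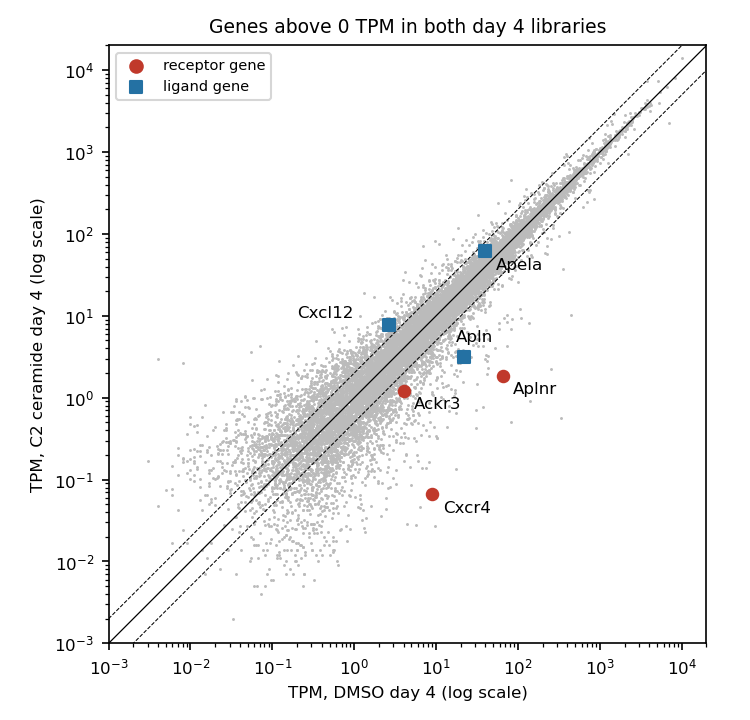
TPM of every gene above 0 TPM in both day 4 libraries, with DMSO on the x axis and C2 ceramide on the y axis, both on log scales; the solid line marks equal levels, the dashed lines 2-fold, red circles receptor genes and blue squares ligand genes. Cxcr4 and Aplnr lie farthest below the line of the 6 genes, and Cxcl12 lies above the upper dashed line.

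The genes have 13 annotated transcripts, of which 11 were above 0 TPM in at least 1 library. Cxcl12 splits by its last coding exons. Cxcl12-202, the alpha form with an open reading frame of 89 codons, had 5.14 TPM with C2 ceramide on day 4, 1.39 TPM with DMSO on day 4 and 9.07 TPM with DMSO on day 3. Cxcl12-203, the beta form of 93 codons, had 2.42 TPM with C2 ceramide, 1.13 TPM with DMSO on day 4 and 5.35 TPM with DMSO on day 3. Cxcl12-201, the gamma form of 119 codons, had 0.180 TPM with C2 ceramide, 0.119 TPM with DMSO on day 4 and 0.562 TPM with DMSO on day 3. Cxcl12-204, a form with a retained intron, had 0.0548 TPM with C2 ceramide and was listed at 0 with DMSO on both days. The alpha and beta forms were thus lowest with DMSO on day 4 and highest with DMSO on day 3. The alpha form made up 66.0% of the TPM of Cxcl12 with C2 ceramide, 52.8% with DMSO on day 4 and 60.5% with DMSO on day 3. On day 4, C2 ceramide over DMSO gave log2 ratios of 1.88 (1.47 to 2.29) for the alpha form, 1.10 (0.76 to 1.46) for the beta form and 0.59 (-0.24 to 1.50) for the gamma form, so for the gamma form no difference was detectable at this depth. These are estimates from reads that the forms largely share, and the intervals take the assignment of reads as known.

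Apela-201, with 3 exons and an open reading frame of 54 codons, made up 97.6% of the TPM of Apela with C2 ceramide on day 4, 97.0% with DMSO on day 4 and 98.6% with DMSO on day 3. Cxcr4-201, with 359 codons, had 0.0664 TPM with C2 ceramide, 7.08 TPM with DMSO on day 4 and 0.0915 TPM with DMSO on day 3. The shorter model Cxcr4-202, which has no stop codon in the annotation, had 1.94 TPM with DMSO on day 4 and was listed at 0 in the other libraries. It held 10.5% of the counts of Cxcr4 with DMSO on day 4. The gene had only 3 counts with C2 ceramide and 4 with DMSO on day 3. These are too few to tell whether the form was absent there. Ackr3-201 (362 codons), Aplnr-201 (377 codons) and Apln-201 (77 codons) carried all of the TPM of their genes.

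**Figure D4:**
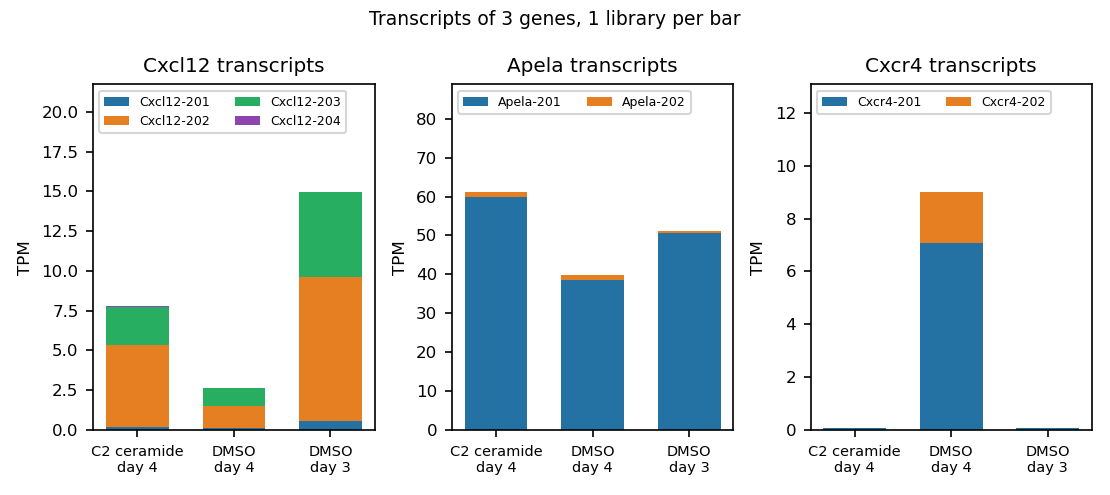
Stacked TPM of the transcripts of Cxcl12, Apela and Cxcr4 in the 3 libraries, with 1 bar per library and 1 colour per transcript; the axes start at 0. Cxcl12-202 is the largest part of Cxcl12 in every library, at 5.14 TPM with C2 ceramide on day 4, 1.39 TPM with DMSO on day 4 and 9.07 TPM with DMSO on day 3.

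RefSeq promoter sequences (GRCm38.p6) were found for 5 of the 6 genes. The 250 bases before the start site are shown for Cxcr4 and Apln, which were highest with DMSO on day 4, and for Cxcl12, which was lowest there, each 5′ to 3′ on the strand of its gene. Capitals mark a match to a searched motif.
Cxcr4 (chr1:128592300-128592549, minus strand): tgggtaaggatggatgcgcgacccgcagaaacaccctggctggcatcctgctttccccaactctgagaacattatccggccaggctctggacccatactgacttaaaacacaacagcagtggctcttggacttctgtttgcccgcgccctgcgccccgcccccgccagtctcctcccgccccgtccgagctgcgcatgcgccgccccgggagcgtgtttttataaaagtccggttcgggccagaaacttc
Apln (chrX:48034854-48035103, minus strand): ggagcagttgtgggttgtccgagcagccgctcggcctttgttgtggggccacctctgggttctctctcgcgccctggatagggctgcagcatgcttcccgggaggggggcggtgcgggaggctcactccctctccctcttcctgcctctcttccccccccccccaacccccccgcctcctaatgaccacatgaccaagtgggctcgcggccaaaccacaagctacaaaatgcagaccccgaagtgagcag
Cxcl12 (chr6:117168285-117168534, plus strand): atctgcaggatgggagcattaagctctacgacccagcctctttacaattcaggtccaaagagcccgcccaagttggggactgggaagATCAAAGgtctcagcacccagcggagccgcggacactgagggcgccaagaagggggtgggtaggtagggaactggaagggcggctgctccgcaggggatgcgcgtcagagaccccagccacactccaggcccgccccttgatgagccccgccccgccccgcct
Motifs were searched on both strands of the 300 bases from 250 before to 50 after each start site. They were the T-box motif TCACACC, the FOXH1 motif AATNNACA, the TCF/LEF motifs CTTTGAA and CTTTGAT, the GATA motif AGATAA and the SMAD motif GTCTAGAC, and none of them overlapped another in these promoters. The 1 match among the 5 promoters was CTTTGAT in Cxcl12, on the opposite strand and starting 163 bases before the start site, a motif that 3.73% of 32851 promoters hold. The other motifs were held by 3.98% (TCACACC), 12.2% (AATNNACA), 5.14% (CTTTGAA), 11.2% (AGATAA) and 0.213% (GTCTAGAC) of promoters. The windows of Cxcr4, Apln and Cxcl12 were 59.3%, 64.0% and 64.7% G and C with 20, 15 and 20 CpG sites, against medians of 52.7% and 7 over all promoters. Those of Ackr3 and Apela were nearer to the medians, at 54% and 49% G and C with 8 and 7 CpG sites. The Apela window covers the start of the minor transcript Apela-202.

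The genes with the most similar pattern were found among 12629 protein-coding genes by the distance over the log2 ratios of both steps, C2 ceramide over DMSO on day 4 and DMSO on day 4 over DMSO on day 3, with 0.1 TPM added, over the 3 libraries. For Aplnr these were Dkk1, an inhibitor of Wnt signalling, at a distance of 0.29, and then Sprr2a3, Gata6 and Evx1. Dkk1 had 0.708 TPM with C2 ceramide, 30.9 TPM with DMSO on day 4 and 0.170 TPM with DMSO on day 3, and it was the 1 gene within a distance of 0.5. For Cxcr4 they were Fgf3, a growth factor, at 0.20, and then Prss12, Pilrb2, 1110017D15Rik and Nrp1, with 5 genes within 0.5. Fgf3 had 0.428 TPM with C2 ceramide, 30.8 TPM with DMSO on day 4 and 0.634 TPM with DMSO on day 3. Prss12, Pilrb2 and 1110017D15Rik were listed at 0 TPM in the libraries other than DMSO on day 4, so the added 0.1 TPM sets their ratios. Cxcr4 and Nrp1 were also below 0.1 TPM in those libraries, so it largely sets theirs too. With it, Cxcr4 was placed at -5.78 for C2 ceramide over DMSO on day 4, in place of -7.09. For DMSO on day 4 over DMSO on day 3 it was placed at 5.58, in place of 6.63. The distances from Cxcr4 thus depend on the added value. So do those of Sprr2a3 and Gata6 from Aplnr, which had 0 and 0.087 TPM with DMSO on day 3.

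The other patterns were shared by more genes. For Apln the nearest genes were Ttc25, Adamts9, Crybg1, Spef1 and Lhfpl2, with 23 genes within 0.5. For Cxcl12 they were Timp4, Capn3, Phactr3, Frmd3 and Ctnna2, with 22 genes within 0.5. For Ackr3 they were Rfx3, Upp1, Zfp128, Mak and Pgf, with 145 genes within 0.5. For Apela they were Arap2, Raph1 and Plaat3, with 1929 genes within 0.5, so its pattern was a common one. Crybg1 had 0.025 TPM with C2 ceramide and Frmd3 had 0.018 TPM with DMSO on day 4. Their distances also depend on the added 0.1 TPM.

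Among the other chemokine receptors, 5 of 24 were in use. On day 4, C2 ceramide over DMSO gave 1 higher, 1 lower and 3 within 2-fold, where 9.97% of all genes were higher and 12.3% lower. These calls rest on few counts with C2 ceramide and with DMSO on day 4: Gpr182, higher, on 20 and 4, and Cmklr1, lower, on 1 and 17. Ccr4, set within 2-fold, had 0 counts in both. The levels of the 5 receptors summed to 0.606 TPM with C2 ceramide, 1.18 TPM with DMSO on day 4 and 0.808 TPM with DMSO on day 3, less than Ackr3 alone in each library. Of the other chemokine ligands 10 of 34 were in use, with 4 higher and 2 lower, against 9.97% and 12.3% of all genes. Of the 4 called higher, 3 rest on few counts: Cxcl1 had 21 counts with C2 ceramide and 8 with DMSO on day 4, Ccl2 had 41 with C2 ceramide and 17 with DMSO on day 4, and Cxcl2 had 11 with C2 ceramide and 0 with DMSO on day 4. Their median was 0.44 on the log2 scale, but -0.70 over ligands with at least 50 counts, so its direction is not settled. Cxcl16, a membrane-bound chemokine, was higher, at 12.5 TPM with C2 ceramide, 5.995 TPM with DMSO on day 4 and 4.40 TPM with DMSO on day 3. Cx3cl1, another membrane-bound chemokine, was lower, at 1.98 TPM with C2 ceramide, 6.94 TPM with DMSO on day 4 and 3.47 TPM with DMSO on day 3. Ccl20 was lower as well, with a log2 ratio of -1.20 (-1.70 to -0.72). Ccl25 gave -0.70 in TPM, but its estimated counts were 179 with C2 ceramide and 154 with DMSO on day 4, so its direction depends on the transcript lengths used.

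The G proteins act downstream of the receptors. Of 20 G protein genes in use, 2 were higher, 3 lower and 15 within 2-fold on day 4, shares near the 9.97% and 12.3% of all genes, and the median ratio of C2 ceramide over DMSO was -0.16 on the log2 scale. Gnai1, an inhibitory alpha subunit of the kind CXCR4 uses, was lower at 7.17 TPM with C2 ceramide, against 20.5 TPM with DMSO on day 4 and 11.5 TPM with DMSO on day 3. The more abundant inhibitory genes Gnai2 and Gnai3 gave log2 ratios of -0.19 and -0.23, within 2-fold, and Gnai2 had 360 TPM with C2 ceramide and 410 TPM with DMSO on day 4. Of the gamma subunits, Gng7 and Gng11 were lower, with log2 ratios of -1.79 and -1.35, and Gng3 was higher, with a log2 ratio of 1.71.

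Of 18 arrestin, receptor kinase and RGS genes in use, which end G protein signals, 1 was higher and 4 were lower, against 9.97% and 12.3% of all genes, and the median was -0.58 on the log2 scale. Rgs12 and Rgs16 gave -1.41 and -1.29, and Rgs17 gave -0.91, within 2-fold. Rgs5 gave -5.96, but rests on 1 count with C2 ceramide and 50 counts with DMSO on day 4, with an interval of -11.3 to -3.42. Of 21 genes for peptidases and glycans that act on the ligands, 3 were higher and 2 lower, shares near the 9.97% and 12.3% of all genes, with a median of -0.17. Dpp4, a peptidase that cuts CXCL12, had 0.510 TPM (70 counts) with C2 ceramide, 0.081 TPM (11 counts) with DMSO on day 4 and 0.194 TPM (26 counts) with DMSO on day 3. Mme (neprilysin), a peptidase that cuts apelin, had 13.1 TPM with C2 ceramide, against 3.76 TPM with DMSO on day 4 and 4.24 TPM with DMSO on day 3. Pcsk5, a proprotein convertase, gave -3.52, and Gpc3, a heparan sulphate proteoglycan of the cell surface, gave -2.01.

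The other guidance and migration genes of gastrulation were called in a larger share. Of 30 in use, 1 was higher, 14 were lower and 15 were within 2-fold on day 4 with a median of -0.63 for C2 ceramide over DMSO, where 12.3% of all genes were lower. For DMSO on day 4 over DMSO on day 3, 15 were higher, 2 lower and 13 within 2-fold, with a median of 1.10, where 12.8% of all genes were higher and 9.45% lower. Itga4 was the gene called higher with C2 ceramide, but had 1 count with DMSO on day 4, with an interval of -1.44 to 6.60. The genes called lower for day 4 over day 3 also rest on few counts. Itga4 had 1 with DMSO on day 4 and 37 with DMSO on day 3, and Flrt2 had 12 and 19. The levels of all 30 genes summed to 493 TPM with C2 ceramide, 1098 TPM with DMSO on day 4 and 475 TPM with DMSO on day 3. Kdr, the VEGF receptor of early mesoderm, had 0.964 TPM with C2 ceramide, 12.1 TPM with DMSO on day 4 and 0.017 TPM (3 counts) with DMSO on day 3. Pdgfra, a receptor of migrating mesoderm, had 0.318 TPM with C2 ceramide, 10.1 TPM with DMSO on day 4 and 0.216 TPM with DMSO on day 3. Snai1, a repressor of E-cadherin, and Wnt5a, a Wnt ligand, gave log2 ratios of -3.97 and -4.89 in the day 4 comparison. The list holds Fgf8 and Kdr, which are also in the streak and the blood and endothelium marker lists, and Fgf8 alone had 37.1 TPM with C2 ceramide, 351 TPM with DMSO on day 4 and 54.0 TPM with DMSO on day 3. Without both, 1 of 28 genes was higher and 12 were lower for C2 ceramide over DMSO, with a median of -0.53, and the levels summed to 455 TPM with C2 ceramide, 735 TPM with DMSO on day 4 and 421 TPM with DMSO on day 3. The part of the streak marker genes in this was not tested.

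**Figure D5:**
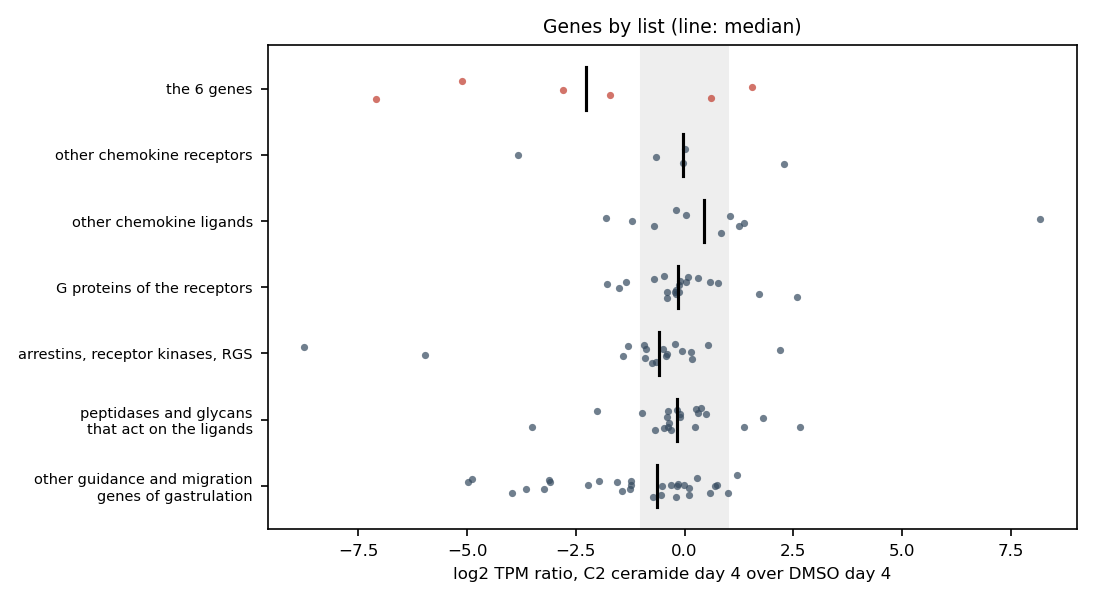
Log2 TPM ratio (C2 ceramide on day 4 over DMSO on day 4) for the 6 genes (red) and for each gene in use of 6 lists (blue-grey), with 1 point per gene, a vertical line at each median and grey for ratios within 2-fold; a TPM of 0 was set to 0.001. The medians are -2.26 for the 6 genes and -0.63 for the other guidance and migration genes, and lie between -0.58 and 0.44 for the other 5 lists.

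The wider KEGG pathways, counted without the 6 genes, stood near the background. In the chemokine signalling pathway 14 of 125 genes were higher and 15 lower in the day 4 comparison (11.2% and 12%, against 9.97% and 12.3% of all genes), and the median was -0.09 on the log2 scale. In the apelin signalling pathway 16 of 119 were higher and 17 lower (13.4% and 14.3%), and the median was -0.05. By the annotation in the gene table, Aplnr, Apela and Apln share the term gastrulation, and of the 30 other genes with that term in use, 0 were higher and 7 lower in the same comparison, and their median was -0.08. Cxcr4, Ackr3 and Cxcl12 share the term chemotaxis, and of its 48 other genes 9 were higher and 9 lower. Ackr3, Aplnr and Apela share vasculogenesis, and of its 60 other genes 4 were higher and 15 lower. Each of these terms had a larger share of lower genes than the 12.3% of all genes, as did the KEGG apelin pathway by a smaller margin. Chemotaxis also had a larger share of higher genes than the 9.97% of all genes, and gastrulation and vasculogenesis had a smaller one. Of the terms held by 4 of the 6 genes, G protein-coupled receptor signalling had 52 higher and 62 lower of 276 other genes. In the same order, angiogenesis had 30 and 32 of 193, and signal transduction had 98 and 131 of 754. Multicellular organism development had 96 and 177 of 807. For these terms, both shares were above those of all genes.

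Aplnr and Cxcr4 are also used in blood and endothelium. The 10 markers of these cell types summed to 21.8 TPM with C2 ceramide, 41.5 TPM with DMSO on day 4 and 20.7 TPM with DMSO on day 3, and none was at 0 counts. With C2 ceramide over DMSO on day 4, 5 were below 0.5-fold (Kdr, Etv2, Lmo2, Gata1 and Cdh5), 4 above 2-fold (Pecam1, Tek, Tal1 and Sox7) and 1 between. Over all genes, 12.3% were lower and 9.97% higher. Some calls rest on few counts, with C2 ceramide and with DMSO on day 4: Cdh5 on 1 and 7, Tal1 on 20 and 6, Sox7 on 75 and 10. Etv2, an early factor of blood and endothelium, had 4.395 TPM with C2 ceramide, 15.0 TPM with DMSO on day 4 and 6.835 TPM with DMSO on day 3, so Etv2 and Kdr shared the day 4 peak of Cxcr4 and Aplnr. Pecam1, a surface protein of endothelium, had 9.68 TPM with C2 ceramide, 4.66 TPM with DMSO on day 4 and 7.53 TPM with DMSO on day 3. Cdh5, which encodes VE-cadherin, was at or below 0.059 TPM in every library. The 8 markers of neural progenitors summed to 41.2 TPM with C2 ceramide, 22.2 TPM with DMSO on day 4 and 20.8 TPM with DMSO on day 3, with Sox1 at 0 counts in both DMSO libraries. On day 4, C2 ceramide over DMSO gave 4 above 2-fold (Neurod1, Pax6, Sox1, Tubb3) and 2 below 0.5-fold (Zic1, Otx1). Over all genes, 9.97% were higher and 12.3% lower. Most of the sum with C2 ceramide was Nes (20.7 TPM) and Tubb3 (16.5 TPM). Zic1 had 0 counts with C2 ceramide and 4 with DMSO on day 4. Neurod1 had 0.799 TPM with C2 ceramide, below its 1.03 TPM with DMSO on day 3. In the same order, Pax6 had 0.921 and 0.738 TPM and Tubb3 had 16.5 and 6.93 TPM. Sox1 had 0.524 TPM with C2 ceramide. The 8 fibroblast and immune markers summed to 14.1 TPM with C2 ceramide, 3.74 TPM with DMSO on day 4 and 4.07 TPM with DMSO on day 3. With C2 ceramide most of this was the fibroblast genes Col1a2 (5.93 TPM) and Dcn (4.25 TPM), while the immune genes Ptprc, Itgam, Cd14 and Lyz2 were below 1 TPM in every library. The part of these cell types in the levels of the 6 genes was not tested.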

How the data were processed

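RNA was prepared from EBs of 3 conditions with 1 library each. The authors made cDNA with a SMART-Seq kit and processed the reads with DRAGEN against GRCm38, and deposited values for 55487 genes and, in another table, for 142699 transcripts. The deposited TPM values are scaled by transcript length and library size by the authors. The estimated counts (expected counts) deposited by the authors are not normalized. TPM totals were checked to be equal in every library.

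Python 3.11.15 was used for TPM ratios (SciPy 1.17.1, pandas 2.3.3, NumPy 2.4.6) and for figures (Matplotlib 3.10.9). Values of 0 TPM were replaced by 0.001. A gene was in use if 1 library or more had at least 10 counts of it. For ratios, the Clopper-Pearson (exact conditional) 95% interval of the rounded counts was shifted to the TPM ratio. The interval of a level is the exact Poisson 95% interval of its count. Both cover counting error only, and reads copied by PCR are not independent molecules. No p-value is given.

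The 6 genes and the lists were chosen with earlier results of these data known. The KEGG lists and annotation terms were added after the data were seen. Named genes were the 6 genes, for each list the 4 genes of at least 50 counts whose day 4 levels differed most between C2 ceramide and DMSO, whichever the direction, the 5 nearest patterns of each gene, and markers. Genes of few counts are also named where they limit a call. Some results this rule covers are not reported here. All 13 transcripts matched GENCODE M21 (GRCm38) by version and length, and exon and codon numbers came from it. Steps were tested on simulated data. Alternatives were pseudocounts of 0.1 and 1 TPM, CPM, TMM factors (edgeR 4.0.16) and size factors (DESeq2 1.42.0) on rounded counts in R 4.3.3, other filters, thresholds of 1.5-fold and 4-fold, transcript sums and, chosen after seeing the data, the leading transcript and the guidance list without marker genes.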

Additional observations from a re-analysis of the deposited data

How the results depend on the processing

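Leaving out a replicate needs more than 1 library per condition and was not run, and differences between cultures cannot be told apart from the treatment or the time. No paired analysis was possible because each condition had 1 library. The 162 alternative ratios of the 6 genes all kept their sign, 158 kept their side of 2-fold, and 151 lay within the counting interval. Part of this agreement was fixed in advance. The other filters leave the ratio of a single gene unchanged, and transcript sums nearly repeat it. The leading transcript does the same for Ackr3, Aplnr and Apln, where it carried all of the TPM. Depth limits Cxcr4 most, with 3 counts with C2 ceramide and 4 counts with DMSO on day 3. Of 147 alternative list medians, 136 kept their sign and moved by at most 1.5-fold.

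With a pseudocount of 1 TPM, the log2 ratios of C2 ceramide over DMSO on day 4 were -3.23 for Cxcr4, -1.17 for Ackr3, -4.53 for Aplnr, 1.27 for Cxcl12 and -2.46 for Apln. For DMSO on day 4 over DMSO on day 3 they were 3.20 for Cxcr4, 5.56 for Aplnr and -2.13 for Cxcl12. For C2 ceramide on day 4 over DMSO on day 3 they were 1.04 for Aplnr and -0.98 for Apln. This left 0 of the 6 genes lower, where 257 of the 17655 genes in use were lower. From its leading transcript, Cxcl12 gave 1.88 for C2 ceramide over DMSO on day 4. In that comparison, 2 of the 6 genes were higher at 1.5-fold and 0 at 4-fold, where 2903 and 752 of the 17655 genes in use were higher. For C2 ceramide on day 4 over DMSO on day 3, 2 were lower with CPM, with TMM and with DESeq2 size factors, 3 at 1.5-fold and 0 at 4-fold. In the same order, 1637, 1654, 1648, 2775 and 737 of the 17655 genes in use were lower.

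The median of the other chemokine receptors (5 genes) for C2 ceramide over DMSO on day 4 was 0.0124 with TMM and 0.00889 with DESeq2 size factors. For DMSO on day 4 over DMSO on day 3 it was 0.42 and 0.0482 with pseudocounts of 0.1 and 1 TPM and 0.87 with no filter, and for C2 ceramide on day 4 over DMSO on day 3 it was -0.71 and -0.14 with these pseudocounts. The median of the other chemokine ligands for C2 ceramide over DMSO on day 4 was 0 with no filter and -0.70 with at least 50 counts. With a pseudocount of 1 TPM it was 0.59 for DMSO on day 4 over DMSO on day 3 and 0.57 for C2 ceramide on day 4 over DMSO on day 3.

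Counts over all genes are given for a pseudocount of 1 TPM, no filter, at least 50 counts, 1.5-fold and 4-fold in this order. The pseudocount, 1.5-fold and 4-fold settings cover the 17655 genes in use. No filter covers more genes and at least 50 counts fewer, so those counts cannot be compared with the others as shares. For C2 ceramide over DMSO on day 4, 443, 3876, 829, 2903 and 752 genes were higher and 617, 5143, 1012, 3447 and 1057 lower. For DMSO on day 4 over DMSO on day 3, 669, 4970, 1156, 3603 and 1162 were higher and 281, 4003, 676, 2712 and 660 lower. For C2 ceramide on day 4 over DMSO on day 3, 407, 4165, 939, 3221 and 915 were higher and 257, 4234, 628, 2775 and 737 lower.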
